A study of Mus musculus with 12 samples.

Results

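Leukocyte integrin and adhesion genes were examined in mouse cells that lacked or carried Stat5a and Stat5b, with and without treatment. The 9 genes were Itgam, Itgax, Itgal, Itga4, Itgb2, Selplg, Icam1, Cd44 and Thy1, and every probe set that the platform annotation gives to 1 of these symbols alone was taken. They had 17 probe sets among 34945 with 1 gene symbol. Of the 17, 14 passed the filter on low values and were tested among 21363 probe sets of 11815 genes. The other 3 were Itga4 1427615_at and 1450155_at and Cd44 1443265_at.

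Messenger RNA was measured on Affymetrix arrays, with 1 colour and 1 array per sample. The labels give 4 groups: knockout treated, knockout untreated, control treated and control untreated, each with 3 arrays. Knockout cells came from mice without the genes Stat5a and Stat5b in their blood cells, and control cells from mice that kept them. The series' title names granulopoiesis driven by GM-CSF, a cytokine that signals through STAT5, but the treatment labels use only the letters GMP. Some sample titles hold these letters too, on untreated as well as treated arrays, so there they do not mark the treatment. Whether the letters in the treatment labels stand for an agent or for the cells is not clear, so the groups are called treated and untreated here. The labels do not state the cell type, age, strain, dose, time, the Cre line or allele used for deletion, or how many animals gave each sample. The titles carry 3 dates, and each date has 1 array of every group. On date 2 the knockout treated array carries another number in its title than the other arrays of that date. Nothing in the labels says that the arrays of a group came from separate animals, so the p-values measure the spread between these arrays.

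Integrins are pairs of an alpha and a beta chain that hold a leukocyte to other cells or to matrix. The beta2 chain, encoded by Itgb2, pairs with the alpha chains of Itgal (LFA-1), Itgam (Mac-1) and Itgax, while the alpha4 chain of Itga4 pairs with beta1 or beta7. Selplg encodes PSGL-1, the ligand by which leukocytes roll on selectins. ICAM-1 is a ligand of LFA-1 and Mac-1, CD44 binds hyaluronan, and THY1 is a surface protein anchored by a lipid that is carried by mouse T cells, some progenitors and other cells. In myeloid cells Itgam and Itgb2 are known to go up as the cells mature, and Icam1 is a known gene of the inflammatory response.

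Stat5a lay at 26.7 to 44.3 in knockout treated and 33.0 to 101 in knockout untreated cells, against 375 to 872 in control treated and 833 to 1147 in control untreated cells. Stat5b lay at 1.80 to 60.5 in knockout treated and 24.0 to 51.2 in knockout untreated cells, against 287 to 1178 in control treated and 515 to 1531 in control untreated cells. The deleted segments are not given, so a probe set outside them would check nothing; on no array did these values go against the label. All 12 markers of granulocyte-monocyte progenitors passed the filter, among them Mpo and Elane. Of 13 T and NK markers on the array 5 passed, Zap70, Cd8a and Cd5 among them, while Cd3e, Cd3d and Cd3g did not. Of 12 markers of stroma and endothelium 5 passed, and Col1a1, Col3a1, Dcn, Cdh5, Pdgfra, Cxcl12 and Lepr did not. Their summed signal was 2183, 2247 and 979 in knockout treated against 605, 1371 and 593 in knockout untreated cells, and 1880, 2392 and 915 in control treated against 891, 2072 and 732 in control untreated cells. It was thus higher after treatment on each date in both genotypes, and Pdgfrb, a receptor of stromal cells, rose in knockout cells by 1.70 ± 0.35 (limma adjusted p = 0.0178). Pdgfrb alone read 510 to 1797 in knockout treated cells, a large part of the sum. The median log2 difference over the 5 passing genes was 0.05 in knockout and -0.05 in control cells, so the list as a whole hardly moved. The part of these markers in the adhesion genes' values was not tested. In bulk samples, fewer cells of a type and less RNA per cell cannot be told apart. The arrays of date 2 stood apart: the ratio of 3' to 5' signal for Actb was 20.8 to 266 there, against 1.14 to 2.05 elsewhere. A high ratio is read in this assay as a sign of short RNA or short labelled copies. Results that rest on date 2 are therefore given by date.

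Treatment was followed by higher Icam1 and Cd44 in knockout cells and by higher Cd44 and Thy1 in control cells. Icam1 in control cells, at 2.35 with a limma adjusted p of 0.05003, only just missed the threshold. In knockout cells 4 of the 14 member probe sets rose (1 of Icam1 and 3 of Cd44) and 0 fell. Over all probe sets tested in that comparison 5.77% rose and 2.89% fell. In control cells 3 of 14 rose (2 of Cd44 and 1 of Thy1) and 0 fell, against 3.16% that rose and 1.54% that fell over all probe sets. The calls are from limma with Benjamini-Hochberg adjustment over 21363 probe sets at a threshold of 0.05. At an unadjusted p under 0.05 there were 8 member sets in knockout and 7 in control cells, of which 1 in each genotype, an Itga4 set, was lower after treatment. Over all sets tested, 24.9% had such a p in knockout and 20.8% in control cells. The median log2 difference over the 14 was 0.50 in knockout and 0.22 in control cells, and over all probe sets it was 0.01 in knockout and -0.01 in control cells.

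**Figure D1:**
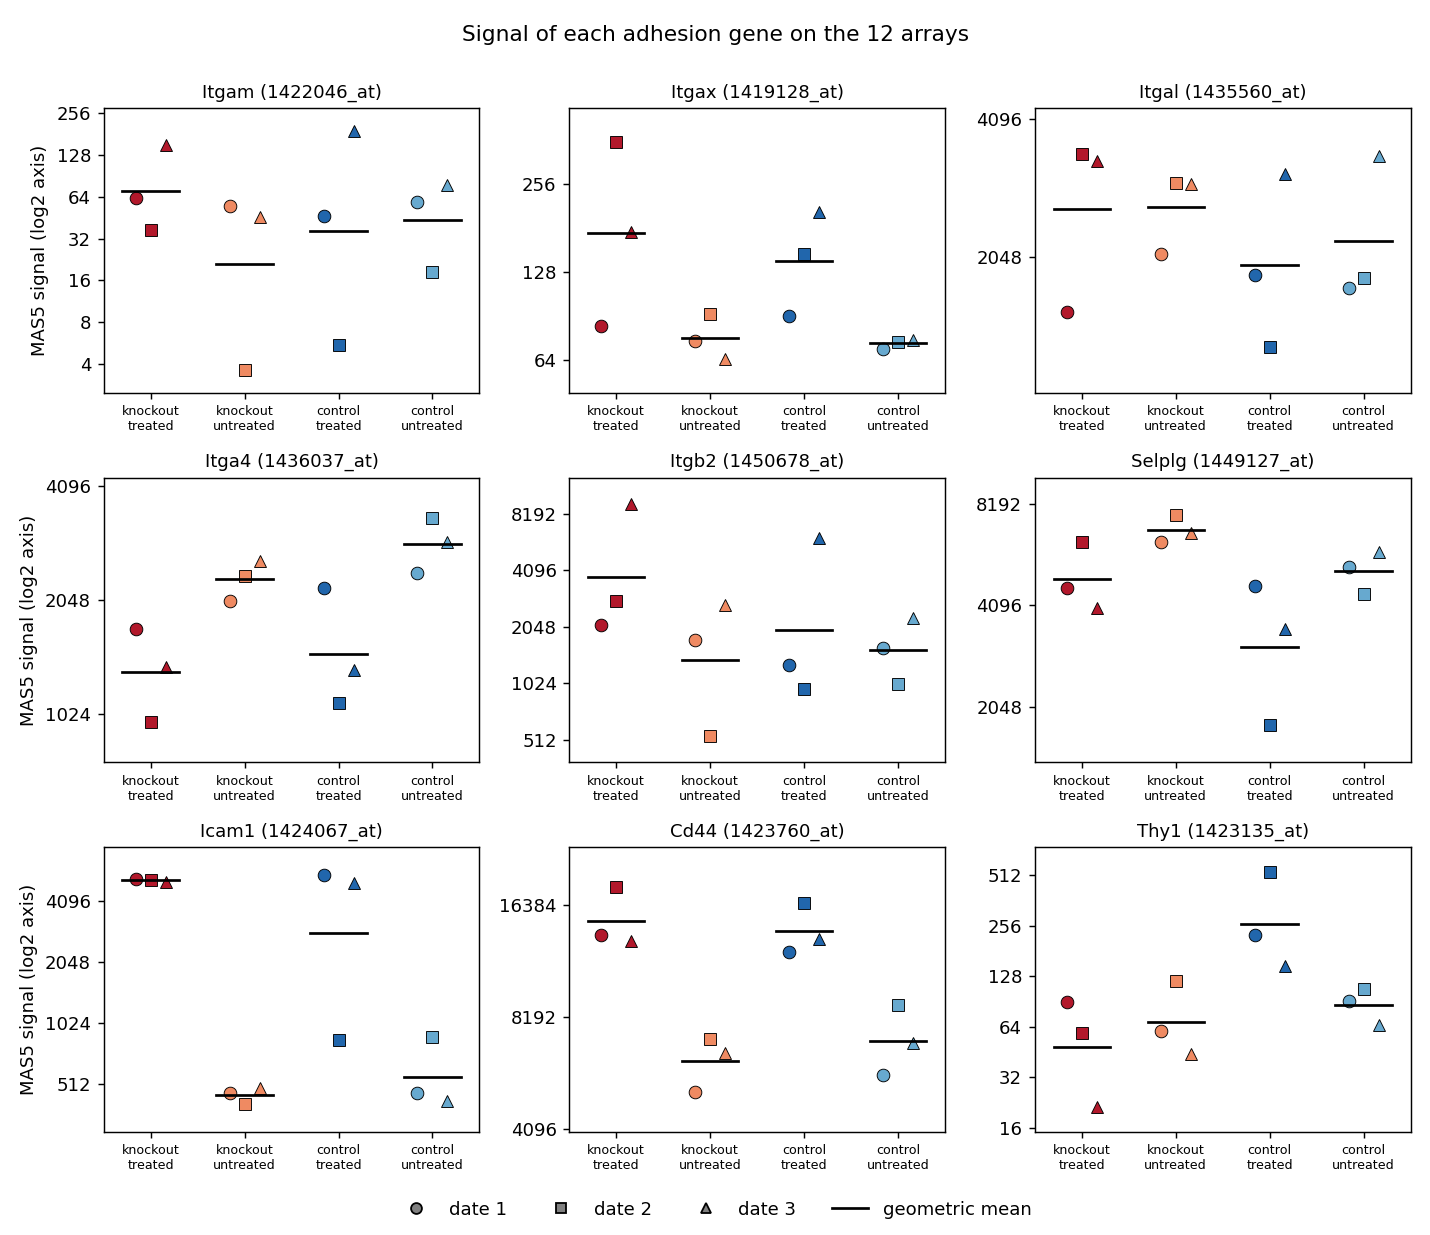
MAS5 signal (log2 axis) of the probe set that stands for each of the 9 genes in the 4 groups, with 1 point per array, the symbol giving the array date and the bar the geometric mean of 3 arrays. Icam1 lies at 5053 or more on all 3 knockout treated arrays and at 5014 or more on only 2 of the 3 control treated arrays, and Cd44 separates treated from untreated arrays in both genotypes.

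Icam1, whose product is the ligand on which LFA-1 and Mac-1 dock, had the largest treatment difference of the 9 genes. Its signal was 5224, 5202 and 5053 in knockout treated cells on dates 1, 2 and 3, against 458, 406 and 488 in knockout untreated cells. The 3 treated arrays lay close together and far above the untreated ones, with no overlap. The log2 difference was 3.48 ± 0.58, or 11.2-fold on the scale of signal plus 13 (SE, limma adjusted p = 0.00719), and it kept an adjusted p of at most 0.0390 in each of the 12 fits without 1 array. With a whole date left out, the call held without date 2 (3.41, adjusted p = 9.85e-04) and was lost without date 1 (3.49, adjusted p = 0.0845) or date 3 (3.56, adjusted p = 0.105).

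In control cells Icam1 was 5494, 842 and 5014 after treatment and 462, 865 and 420.0 without it. The treated arrays of dates 1 and 3 were as high as those of knockout cells, but the treated array of date 2 lay just below its untreated partner. That array also had the highest Actb 3' to 5' ratio of the 12 (266), and the part of this in its Icam1 value was not tested. The log2 difference by date was 3.54, -0.04 and 3.54. Over all dates it was 2.35 ± 0.58 with an adjusted p of 0.05003, which misses the threshold. Without date 2 it was 3.54 ± 0.20 (adjusted p = 7.73e-04), and without the control treated array of date 2 it was 3.30 (adjusted p = 0.00143).

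The 250 bases before the Icam1 start are shown because Icam1 has the largest difference and STAT5 is what the knockout cells lack, and those of Cd44 because it moved together with Icam1. The sequences are RefSeq's on GRCm38.p6, Icam1 at chr9:21015690-21015939 on the plus strand and Cd44 at chr2:102901666-102901915 on the minus strand, each 5' to 3' with motif matches in capitals.
Icam1: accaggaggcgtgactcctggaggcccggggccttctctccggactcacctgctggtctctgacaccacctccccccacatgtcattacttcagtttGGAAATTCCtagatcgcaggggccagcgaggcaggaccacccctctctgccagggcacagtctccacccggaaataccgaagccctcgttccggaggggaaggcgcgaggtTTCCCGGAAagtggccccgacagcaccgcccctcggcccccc
Cd44: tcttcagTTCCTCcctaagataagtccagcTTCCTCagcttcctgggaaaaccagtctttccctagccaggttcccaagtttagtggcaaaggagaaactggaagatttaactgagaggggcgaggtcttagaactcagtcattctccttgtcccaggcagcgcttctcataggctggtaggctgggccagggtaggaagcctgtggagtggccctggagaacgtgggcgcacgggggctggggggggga
Motifs were searched on both strands and did not overlap in these windows. The STAT motif TTCNNNGAA matched once in Icam1, from -42 to -34, as TTCCCGGAA. The kappaB-like motif GGANNTTCC matched once in Icam1, from -153 to -145, as GGAAATTCC. Among 32851 promoters of the same length 7.02% held the STAT motif and 3.59% the kappaB-like one. Cd44 held the PU.1 core GAGGAA at 2 places on the other strand, a motif found in 23.3% of promoters, and no match of the first 2 motifs or of the AP-1 motif TGANTCA (6.75% of promoters). A match is a description of letters and not a site in use. The promoter table held 5 of the 9 genes.

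Cd44, the hyaluronan receptor, rose with treatment in both genotypes. Probe set 1423760_at read 13593, 18275 and 13112 in knockout treated cells, against 5139, 7150 and 6552 in knockout untreated cells. In control treated cells it read 12255, 16507 and 13220, against 5721, 8826 and 6966 in control untreated cells. The lowest treated array lay above the highest untreated array in each genotype. The log2 difference was 1.25 ± 0.20 in knockout (adjusted p = 0.00620) and 0.97 ± 0.20 in control cells (adjusted p = 0.0263).

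The other tested Cd44 probe sets gave similar sizes. Set 1434376_at rose by 1.10 ± 0.25 in knockout (adjusted p = 0.0257) and by 1.15 ± 0.25 in control cells (adjusted p = 0.0309). Set 1452483_a_at differed by 1.02 ± 0.28 in knockout (adjusted p = 0.0481) and by 0.93 ± 0.28 in control cells (adjusted p = 0.0862), the second not past the threshold. All 3 sets were higher after treatment on all 3 dates in both genotypes, with log2 differences of 0.63 to 1.43 over dates, sets and genotypes. Set 1443265_at did not pass the filter and read at most 54.4. The call of 1423760_at in knockout cells held in each of the 12 fits without 1 array (adjusted p of at most 0.0339). In control cells it held in 7 of the 12 fits, and the log2 difference was 0.92 to 1.01 over the 12. It was lost without control untreated replicate 1, 2 or 3 or control treated replicate 1 or 3, where the adjusted p reached 0.113. The call of 1434376_at held in 7 of the 12 fits in knockout and in 6 in control cells, and that of 1452483_a_at in 2 of the 12 in knockout cells, with log2 differences of 0.92 to 1.25, 0.94 to 1.32 and 0.72 to 1.22. The calls of 1434376_at were lost in knockout cells without knockout treated replicate 1, 2 or 3 or knockout untreated replicate 1 or 3. In control cells they were lost without control untreated replicate 1, 2 or 3, control treated replicate 1 or 3 or knockout untreated replicate 1. The call of 1452483_a_at was kept only without control treated replicate 2 or 3. Without date 1 or date 3 no Cd44 set passed, with adjusted p of 0.132 to 0.465.

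**Figure D2:**
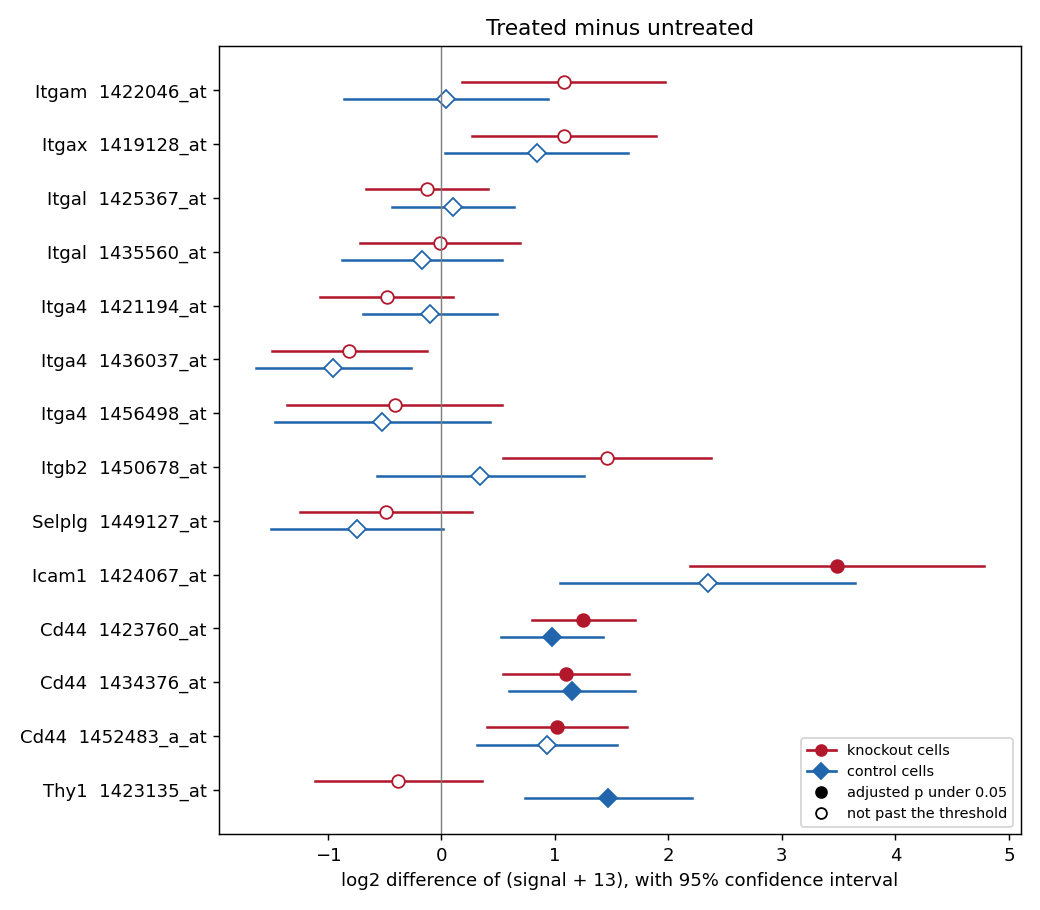
Treated minus untreated log2 difference of (signal + 13) for the 14 tested probe sets in knockout cells (circles) and control cells (diamonds), with 95% confidence intervals; filled symbols have an adjusted p under 0.05. Icam1 has the largest difference, the Cd44 sets lie near 1 in both genotypes, and Thy1 lies above 0 in control cells and below 0 in knockout cells.

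Thy1 was dim, above the filter value of 70.5 on 7 of 12 arrays, and was highest in control treated cells. Its signal was 89.3, 58.7 and 21.4 in knockout treated cells and 60.3, 119 and 44.2 in knockout untreated cells. It was 227, 532 and 147 in control treated cells and 91.1, 108 and 65.2 in control untreated cells. Each control treated array lay above all 9 other arrays. In control cells the log2 difference was 1.47 ± 0.33 (adjusted p = 0.0350), and dates 1, 2 and 3 gave 1.20, 2.18 and 1.03.

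In knockout cells Thy1 differed by -0.38 ± 0.33 (adjusted p = 0.527), and the dates gave 0.48, -0.88 and -0.73. The call in control cells held in 3 of the 12 fits without 1 array, those without knockout treated replicate 1 or 2 or knockout untreated replicate 2. In the other 9 fits the adjusted p was at most 0.132 and the log2 difference over the 12 was 1.17 to 1.67. Without date 2 it was 1.12 (adjusted p = 0.0902).

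Markers of T and NK cells are given here because mouse T cells carry THY1. Of 13 on the array 5 passed the filter (Il7r, Zap70, Cd5, Nkg7 and Cd8a), and Cd3e, Cd3d, Cd3g, Cd247, Cd4, Cd7, Ncr1 and Gzma did not. Over all arrays Zap70 read 227 to 754, Cd8a 18.7 to 179 and Cd5 15.4 to 110. The summed signal of the list was 2748 to 6780 in knockout treated against 8700 to 10229 in knockout untreated cells, and 2427 to 6850 in control treated against 8554 to 9678 in control untreated cells. Most of it was Nkg7, at 7710 to 9645 in untreated cells of both genotypes. Il7r, the receptor chain of the lymphoid cytokine IL-7, read 56.3 to 1559 in knockout treated against 10.9 to 36.1 in knockout untreated cells and 41.6 to 1115 in control treated against 39.2 to 64.9 in control untreated cells. It rose in knockout cells by 3.78 ± 0.93 (limma adjusted p = 0.0347), and no other gene of the list passed in either genotype on the 1 probe set that stands for it. Every untreated array of both genotypes lay below the filter value for Il7r. It thus passed the filter through treated arrays alone, so the filter favoured a difference. Cd3g read 16.6 to 52.0 in control treated cells, at most 15.1 in knockout treated, at most 8.27 in knockout untreated and at most 5.65 in control untreated cells, all below the filter value. Cd3e read at most 136, in a knockout untreated array, and Cd3d at most 16.5. The part of these markers in the Thy1 result was not tested.

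Itgb2, Itgax and Itgam had higher means in knockout treated than in knockout untreated cells, but none of them passed the threshold. Itgb2, the shared beta2 chain, read 2085, 2814 and 9196 in knockout treated cells, against 1739, 541 and 2693 in knockout untreated cells. In control cells it read 1288, 955 and 6116 after treatment and 1578, 1014 and 2297 without it. The groups overlapped in both genotypes, and the treated arrays of date 3 were the highest.

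The log2 difference of Itgb2 was 1.46 ± 0.41 in knockout cells (adjusted p = 0.0548), and the dates gave 0.26, 2.35 and 1.77. In control cells it was 0.34 ± 0.41 (adjusted p = 0.688), with -0.29, -0.09 and 1.41. The knockout value passed the threshold without knockout treated replicate 1 (1.85, adjusted p = 0.0422) or knockout untreated replicate 1 (1.87, adjusted p = 0.0445), and its adjusted p was 0.0318 with a constant of 50 in place of 13, 0.0418 with the stricter filter and 0.0476 with 1 probe set a gene. In the other alternatives, dates and arrays left out included, it was 0.0541 to 0.525.

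Itgax, the alpha chain found with beta2 on dendritic cells and some macrophages, read 83.8, 356 and 176 in knockout treated cells and 74.5, 92.3 and 64.8 in knockout untreated cells. In control cells it read 90.6, 147 and 206 after treatment and 70.1, 73.8 and 75.3 without it. The control treated arrays all lay above the control untreated ones, while 1 knockout treated array lay within the range of the untreated ones. Differences of 1.08 ± 0.36 in knockout (adjusted p = 0.0965) and 0.84 ± 0.36 in control cells (adjusted p = 0.224) did not pass the threshold. The dates gave 0.15, 1.81 and 1.28 in knockout and 0.32, 0.89 and 1.31 in control cells. Without knockout treated replicate 2, the highest array, the knockout value was 0.65 (adjusted p = 0.299). Of 11 dendritic cell markers on the array 7 passed the filter. Among them Batf3 rose in control cells by 4.55 ± 0.64 (limma adjusted p = 0.00469), and Cd74 rose in both genotypes. The list median was 0.06 in knockout and -0.11 in control cells. The part of these markers in the Itgax values was not tested.

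Itgam, the Mac-1 alpha chain and a marker of maturing myeloid cells, passed the filter with only 3 arrays above it, all of date 3. It read 62.6, 37.1 and 150.0 in knockout treated cells, 54.6, 3.66 and 45.4 in knockout untreated cells, 46.2, 5.53 and 189 in control treated cells and 58.1, 18.5 and 77.8 in control untreated cells. The groups overlapped. The log2 difference was 1.08 ± 0.40 in knockout (adjusted p = 0.130) and 0.04 ± 0.40 in control cells (adjusted p = 0.970), and 0.16 and -0.26 on date 1. In the RefSeq annotation 0 protein-coding genes lie between Itgam and Itgax.

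Itgal, the LFA-1 alpha chain, showed little difference on either probe set. Set 1435560_at read 1552, 3435 and 3323 in knockout treated, 2076, 2971 and 2963 in knockout untreated, 1872, 1306 and 3111 in control treated and 1750, 1842 and 3398 in control untreated cells. Its log2 difference was -0.01 (95% confidence interval -0.72 to 0.69) in knockout and -0.17 (-0.88 to 0.53) in control cells. Set 1425367_at, at 97.7 to 296 over all arrays, differed by -0.13 and 0.10 in the same order of genotypes.

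Myeloid markers moved on some of the same arrays. The summed signal of the monocyte and macrophage list, of which 9 of 10 genes on the array passed, was 30793, 42202 and 36615 in knockout treated cells against 20671, 36838 and 26056 in knockout untreated cells. It was 23249, 50430 and 29009 in control treated cells against 19492, 37971 and 25345 in control untreated cells, so that it was higher after treatment on each date in both genotypes. A large part of the sum was Csf1r, at 40377 on the control treated array of date 2. Csf1r differed by 0.45 in knockout and 0.56 in control cells without passing (limma adjusted p = 0.252 and 0.196). On dates 1 and 2 in control cells and date 2 in knockout cells Csf1r rose by more than the sum. There the other genes of the list together were not higher after treatment. Cd14 rose in both genotypes, by 3.47 in knockout (adjusted p = 0.00267) and 2.63 in control cells (adjusted p = 0.0127). The chemokine receptor gene Cx3cr1 rose in knockout cells, by 2.22 (adjusted p = 0.00455), and F13a1, which encodes a chain of clotting factor XIII, fell in both: it read 2322 to 4137 in knockout treated against 8696 to 10107 in knockout untreated cells (adjusted p = 0.00754), and in control cells it fell by 1.38 on the log2 scale (adjusted p = 0.0149). The macrophage gene Adgre1 differed by -0.74 in knockout (adjusted p = 0.116) and 0.58 in control cells (adjusted p = 0.245). The mature neutrophil list, all 8 genes of which passed, summed to 12353, 45447 and 25432 in knockout treated against 7869, 18305 and 28227 in knockout untreated cells. It summed to 11930, 26674 and 22480 in control treated and 6942, 66953 and 23132 in control untreated cells. The part of these markers in the integrin values was not tested.

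**Figure D3:**
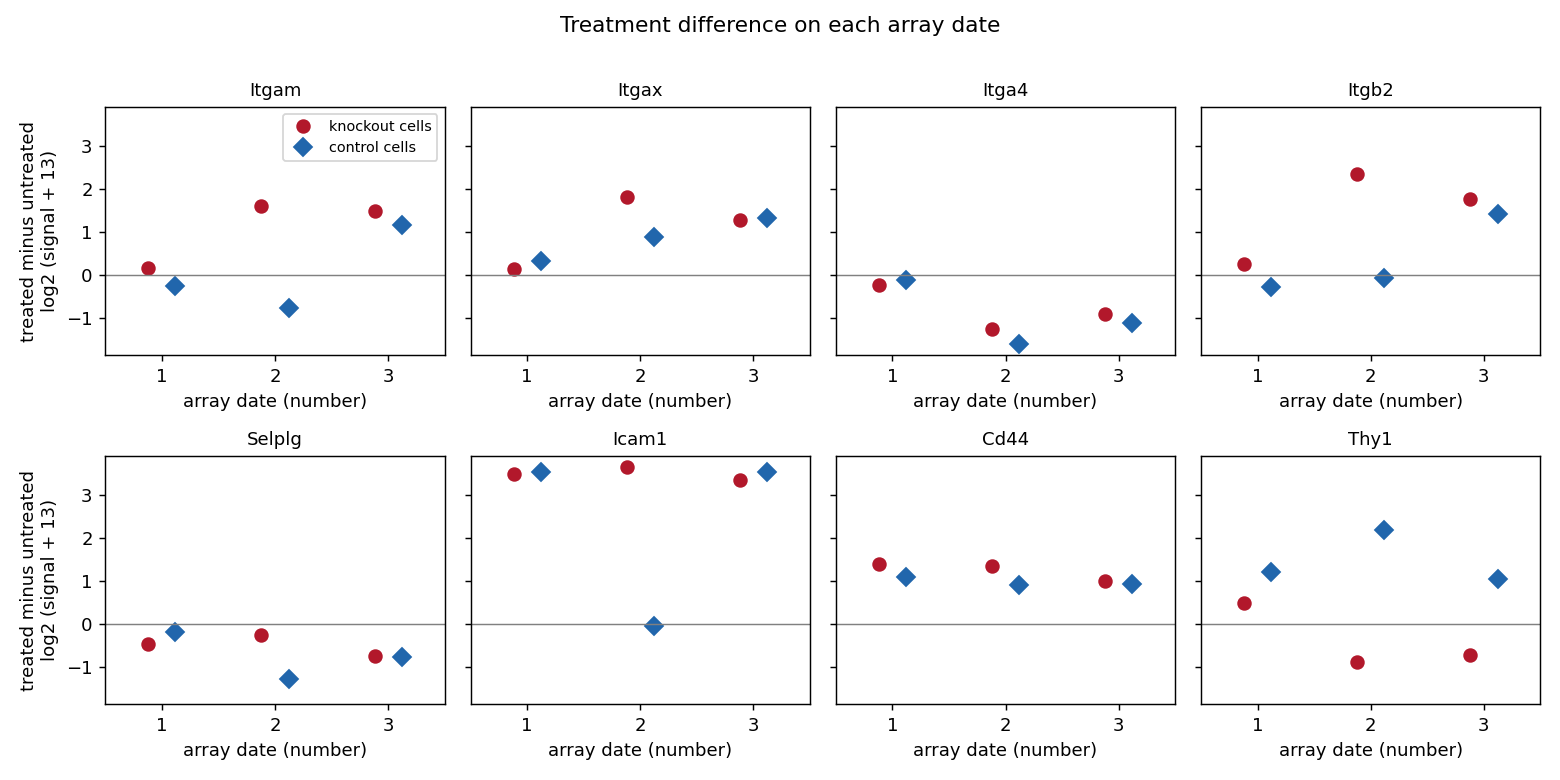
Treated minus untreated log2 difference of (signal + 13) on each of the 3 array dates for 8 of the 9 genes, in knockout cells (circles) and control cells (diamonds). Itgal is not drawn; its set 1435560_at gave -0.49 to 0.21 over dates and genotypes. On date 1 Itgam, Itgax, Itga4 and Itgb2 differ by at most 0.32 in size, while Icam1 and Cd44 differ by 1.10 to 3.54; the control value of Icam1 is near 0 on date 2 alone.

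Itga4, the alpha4 chain that binds VCAM-1 and fibronectin, had lower means after treatment, without passing the threshold. Set 1436037_at, which was lower on each treated array than on its untreated partner, read 1716, 976 and 1366 in knockout treated cells against 2033, 2373 and 2592 in knockout untreated cells. In control cells it read 2196, 1096 and 1333 after treatment and 2408, 3363 and 2916 without it. Treated and untreated arrays did not overlap in either genotype. The log2 difference was -0.81 ± 0.31 in knockout (adjusted p = 0.135) and -0.95 ± 0.31 in control cells (adjusted p = 0.108), and only -0.24 and -0.13 on date 1. Sets 1421194_at and 1456498_at, dimmer at 98.3 to 280 and 60.7 to 327, differed by -0.10 to -0.52 with adjusted p of 0.292 to 0.873. The 2 sets below the filter read at most 50.3 and 81.6.

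The beta chains that pair with alpha4 were looked at beside it. Itgb7 had a mean signal of 1610 ± 932 in knockout treated against 425 ± 135 in knockout untreated cells, and 774 ± 532 in control treated against 373 ± 133 in control untreated cells (SD, n = 3 arrays each). Its log2 difference was 1.78 ± 0.51 in knockout (limma adjusted p = 0.0577) and 0.87 ± 0.51 in control cells (limma adjusted p = 0.371). Itgb1 set 1426918_at differed by -0.45 in knockout and -0.70 in control cells (adjusted p = 0.574 and 0.410). The other tested Itgb1 sets did not pass either, and the sets differed in direction in control cells. Set 1427771_x_at differed by -0.56 in knockout and 0.24 in control cells, and set 1452545_a_at by -0.27 and -0.98.

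Selplg, the selectin ligand, read 4604, 6325 and 4018 in knockout treated cells and 6323, 7597 and 6734 in knockout untreated cells. In control cells it read 4660, 1807 and 3489 after treatment and 5316, 4424 and 5917 without it. The control treated array of date 2 was the lowest of all. Each treated array was below its untreated partner, although the groups overlapped narrowly, and the differences of -0.49 ± 0.34 in knockout (adjusted p = 0.416) and -0.75 ± 0.34 in control cells (adjusted p = 0.248) did not pass the threshold. Over the 12 fits without 1 array they were -0.81 to -0.29 in knockout and -1.07 to -0.31 in control cells, where the value nearest 0 was that without control treated replicate 2.

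Between genotypes, 0 of the 14 member probe sets passed the threshold in treated or in untreated cells. Over all probe sets tested the share was 0.0609% in treated and 0.00936% in untreated cells, so that few calls were made anywhere. At an unadjusted p under 0.05 in limma there were 2 members in treated cells, Thy1 and Itgb2, and 0 in untreated cells. Over all sets the share was 8.46% in treated and 2.43% in untreated cells. Thy1 in treated cells differed by -2.12 ± 0.33 (knockout minus control, adjusted p = 0.0705), and dates 1, 2 and 3 gave -1.23, -2.93 and -2.22. Its highest knockout treated array, at 89.3, lay below its lowest control treated array, at 147. Itgb2 in treated cells differed by 0.94 ± 0.41 (adjusted p = 0.584), with positive values on all 3 dates.

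Icam1 in treated cells differed between genotypes by 0.85 (95% confidence interval -0.45 to 2.15), with -0.07, 2.61 and 0.01 on the 3 dates. On dates 1 and 3 it thus differed little between genotypes. Cd44 set 1423760_at differed by 0.09 (-0.36 to 0.55) in treated and -0.18 (-0.63 to 0.27) in untreated cells. In untreated cells the largest difference in size among the 14 sets was that of Itgam, -0.54 (-1.44 to 0.35), with adjusted p near 1. The Thy1 difference there was -0.28 (-1.01 to 0.46).

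**Figure D4:**
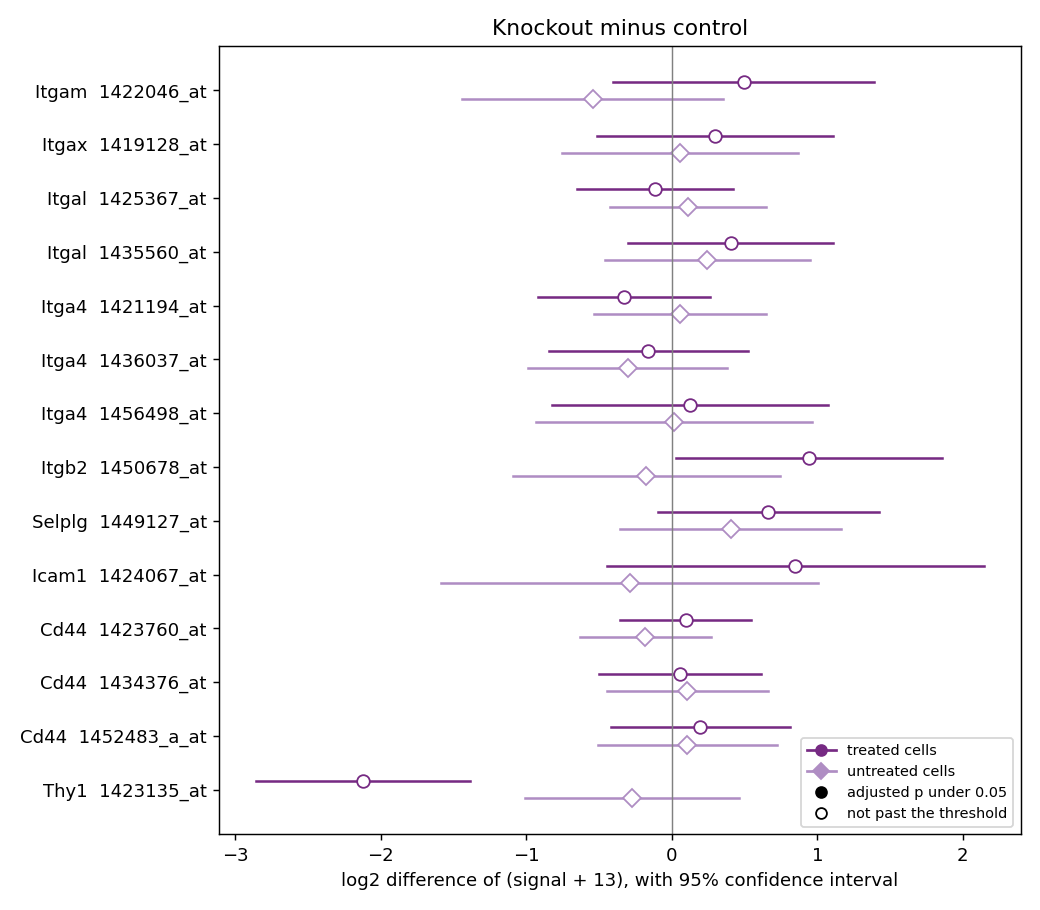
Knockout minus control log2 difference of (signal + 13) for the 14 tested probe sets in treated cells (circles) and untreated cells (diamonds), with 95% confidence intervals; open symbols did not reach an adjusted p under 0.05. Thy1 in treated cells stands at -2.12 and the other 13 sets lie between -0.33 and 0.94 in treated cells.

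Whether the genotypes responded differently to treatment was tested directly, as the treatment difference in knockout cells minus that in control cells. 0 of the 14 sets passed, as did 0% of all probe sets, with limma. At an unadjusted p under 0.05 there were 1 member set and 549 sets in all (2.57%). The member was Thy1, at -1.85 ± 0.47 (unadjusted p = 0.00262, adjusted p near 1), negative on all 3 dates at -0.72, -3.06 and -1.77. The difference was 1.14 for Icam1 (95% confidence interval -0.70 to 2.97), 1.12 for Itgb2 (-0.18 to 2.41) and 0.28 for Cd44 set 1423760_at (-0.36 to 0.91). Without date 2 the Icam1 value was -0.13. These intervals are wide, and the adjusted p does not show that the genotypes responded alike.

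Beyond the 9 genes, 100 genes of adhesion were listed in 5 groups, of which 92 were on the array and 75 were tested with 156 probe sets. In knockout cells 24 sets of 18 genes rose and 0 fell with treatment in limma, where 5.77% of all sets rose and 2.89% fell. At an unadjusted p under 0.05, 35 were higher and 12 lower, against 14.0% and 10.9% of all sets. In control cells 7 sets of 5 genes rose and 5 sets of 4 genes fell, where 3.16% of all sets rose and 1.54% fell, and 21 were higher and 14 lower at an unadjusted p under 0.05, against 11.2% and 9.62% of all sets. These shares stand behind the counts of each list. The median over the 156 sets was 0.13 in knockout and 0.05 in control cells. In the other comparisons 0 of the 156 passed, and at an unadjusted p under 0.05 there were 13 between genotypes in treated cells, 2 in untreated cells and 7 for the difference of responses, against 8.46%, 2.43% and 2.57% of all sets.

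Among 37 sets of immunoglobulin-type adhesion molecules 9 rose in knockout cells (Alcam, F11r, Jam2, Sirpa and Vcam1). Alcam, an adhesion molecule that binds CD6, rose in both genotypes: set 1437467_at averaged 2446 ± 552 in knockout treated against 611 ± 159 in knockout untreated cells, and 2981 ± 1113 in control treated against 947 ± 277 in control untreated cells (SD, n = 3 arrays each). Its log2 differences were 1.99 ± 0.30 (limma adjusted p = 0.00449) and 1.61 ± 0.30 (limma adjusted p = 0.0158), first in knockout and then in control cells. Jam2, a junctional adhesion molecule, rose by 1.68 ± 0.38 in knockout and 2.02 ± 0.38 in control cells, where its untreated mean of 11.9 lay below the added constant. Vcam1, the ligand of the alpha4 integrins, rose in knockout cells on 1 of 3 sets, by 2.68 ± 0.69 (adjusted p = 0.0401), and was named after its values were seen.

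Icam2, another LFA-1 ligand, fell in control cells, by 2.20 ± 0.48 on the log2 scale (adjusted p = 0.0308). The difference of Icam2 there was -1.17, -3.73 and -1.69 on dates 1, 2 and 3, so it was largest in size on date 2. Its mean was 1039 ± 135 in knockout treated against 2724 ± 397 in knockout untreated cells and 595 ± 404 in control treated against 2262 ± 240 in control untreated cells (SD, n = 3 arrays each). The value in knockout cells was -1.38 ± 0.48 (limma adjusted p = 0.105). Cd48 (-1.14) and Ceacam1 (-0.96) also fell in control cells. In all, 4 sets of the immunoglobulin-type list rose and 3 fell in control cells.

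Among 46 sets for integrin activation and linkage, 6 rose in knockout cells (Fyb, Lims1, Ptk2b, Tln1 and Vcl). Fyb, an adaptor that links receptors to integrin activation, had a mean of 1823 ± 842 in knockout treated against 458 ± 69.4 in knockout untreated cells (SD, n = 3 arrays each), a log2 rise of 1.87 ± 0.36 (limma adjusted p = 0.0129). In control cells this Fyb set did not pass, with a mean of 917 ± 407 treated against 643 ± 229 untreated. Tln1, the talin that binds beta chain tails, rose on 1 of its 3 sets, by 1.32 in knockout cells. In control cells 2 sets fell, both of Rasgrp2, the exchange factor that switches on RAP1 ahead of integrins, by 1.33 ± 0.29 (adjusted p = 0.0294) and 1.14 ± 0.24 (adjusted p = 0.0283).

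Among 23 sets of other integrin subunits 3 rose in knockout cells (Itga5, Itgav and Itgb5) and 0 passed in control cells, where 4 had an unadjusted p under 0.05 in limma. Of 24 sets of selectins and selectin ligand synthesis, 2 rose in knockout and 1 in control cells, all of St3gal6, a sialyltransferase that helps to build selectin ligands. St3gal6 set 1449078_at passed the filter on 3 arrays, all treated. Set 1449079_s_at passed it on 4 arrays, also all treated, so the filter favoured a difference in both sets. It averaged 71.8 ± 25.1 in knockout treated against 18.8 ± 15.9 in knockout untreated cells, and 72.4 ± 12.9 in control treated against 15.7 ± 7.48 in control untreated cells (SD, n = 3 arrays each), the untreated means lying near the added constant. It rose by 1.48 ± 0.29 in knockout (adjusted p = 0.0133) and 1.59 ± 0.29 in control cells (adjusted p = 0.0137). Of 26 sets of hyaluronan and CD44 partners, 4 rose in knockout (Adam17, Cd74, Ezr and Mmp14) and 2 in control cells (Cd74 and Ezr). Mmp14, a membrane protease that cuts CD44, rose by 1.60 ± 0.31 in knockout cells (adjusted p = 0.0140). In control cells Mmp14 did not pass, but its mean was 139 ± 52.3 treated against 51.8 ± 10.6 untreated (SD, n = 3 arrays each). Cd74, which pairs with CD44 as a receptor of the cytokine MIF, rose by 1.83 ± 0.35 in control cells (adjusted p = 0.0174). Ezr encodes ezrin, which ties the CD44 tail to actin.

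**Figure D5:**
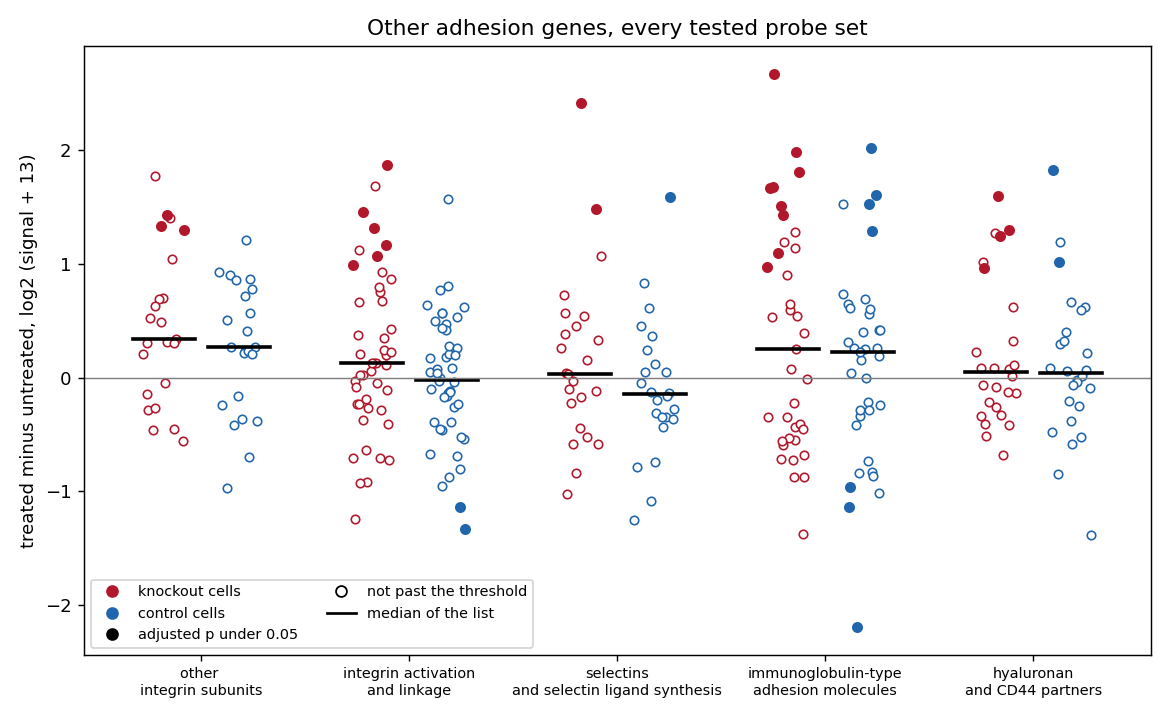
Treated minus untreated log2 difference of (signal + 13) of every tested probe set of the 5 lists of other adhesion genes, in knockout cells (left column of each pair) and control cells (right column); filled points have an adjusted p under 0.05 and bars are list medians. All 24 filled points of knockout cells lie above 0, while of the 12 of control cells 7 lie above and 5 below.

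Similarity of pattern was described as Pearson's r over the 12 arrays, on log2 values centred on each date. The arrays share their scaling and the treatment, so no p is given. Cd44 and Icam1 had an r of 0.92, Itgb2 and Itgam 0.87, and Itgb2 and Itgax 0.85, while Itga4 and Itgax had -0.90. Thy1 had no r above 0.29 with another of the 9 genes, and its most negative were -0.70 with Selplg and -0.63 with Itgal. Outside the 9 genes, the most alike were Pik3r5 (0.99), Mmp13 (0.99) and Tnfrsf1b (0.99) for Icam1, and Ell2 (0.99), Hmgcs1 (0.99) and Ppp1r12a (0.98) for Cd44. For Itgb2 they were Cd9 (0.96), Il7r (0.96) and Cplane1 (0.95), for Itgam E2f7 (0.95), Pot1b (0.93) and Il7r (0.92), and for Itgax Inf2 (0.98), Atp8b2 (0.97) and Itgb3 (0.97). For Itga4 they were Abcg2 (0.99), Ap1ar (0.97) and Klhl22 (0.95), for Itgal Nsd2, Txndc11 and Xpo6 (0.98 to 0.99), for Selplg Shkbp1, Ints11 and 1700123O20Rik (all 0.98), and for Thy1 Mpp3 (0.94), Dach1 (0.93) and Timp3 (0.92).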

How the data were processed

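The deposited values are signal intensity per probe set, made by the authors with MAS5 per the submitters' processing notes, and each array's trimmed mean lay at 500.003 to 500.004. Other steps are not given in the sources used here. From these intensities, log2(intensity + 13) was computed, 13 being the rounded 20th percentile of all values. Of 45101 probe sets, 34945 had 1 symbol, and 21363 were tested, those whose intensity passed 70.5, the median over the table, on 3 or more of the 12 arrays, with limma 3.58.1 (lmFit and eBayes, R 4.3.3). The fit held 4 groups and the array date as a block, with Benjamini-Hochberg adjustment over all sets, and only rows of the described genes are printed. Errors of log2 differences are SE and those of signals are SD. Date was used as a block because each date held every group: arrays of 1 date deviated from their group means together (r of 0.36 to 0.75 over 18 pairs, -0.66 to 0.40 for 36 pairs of different dates). A saturated or weak probe set can understate a change, and the number of arrays limits the precision: the median 95% interval was ± 0.68 for a treatment difference and ± 0.97 for a difference of responses. The script was tested on simulated data.

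All probe sets of the 9 genes are named; 1 value for a gene is its passing set with the highest mean log2 value. Of other adhesion genes the rule names at most the 4 with the smallest adjusted p per direction and comparison; further names in the lists were added after their values were seen. The 3 most alike genes follow from r alone. The members and lists were chosen with earlier results of these data known. Python 3.11.15 drew tables and figures. Alternatives tried were no block, other constants, other filters, quantile normalization, 1 probe set a gene, array weights, fits of only the groups compared, and leaving out arrays or dates.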

Additional observations from a re-analysis of the deposited data

How the results depend on the processing

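Of 14 member probe sets, 4 passed the threshold for treatment in knockout cells. The count was 1 without the date as a replicate block, 2 without the filter on low values (17 sets tested), 2 with only the groups compared, 2 to 4 without 1 array, and 5, with Itgb2 added, under a constant of 50 or the stricter filter. For treatment in control cells the count was 3, against 0 without the block, 0 without the filter, 5 with array weights, 4 with a constant of 50 or the stricter filter, 0 with only the groups compared, and 0 to 3 without 1 array. Without date 1 or date 3, alternatives chosen after seeing the data, it was 0 in either genotype. In treated cells of knockout against control the count of 0 became 1, Thy1, with a constant of 50 (adjusted p = 0.0496), a stricter filter (0.0479) or array weights (0.0104). Icam1 in control cells passed in 8 of 24 alternatives, with adjusted p of 2.64e-04 to 0.456. No called value changed its sign. Over the 7 called values of single probe sets, 69 of 165 alternative fits lost the call, and over the 63 values not called, 17 of 1471 fits gained one. The cause was not tested, except that fewer arrays enter where groups, dates or arrays are left out and more sets are adjusted for without the filter. Over all sets the count for treatment was 1849 in knockout and 1004 in control cells, against 343 and 172 without the block, 949 and 215 with only the groups compared, and 238 and 93 without date 1. It was 107 and 36 without date 3, 1045 and 548 without the filter, and 3578 and 3587 with array weights. Dim signals limit Itgam and Thy1, and the high 3' to 5' ratios of date 2 limit each value that rests on that date.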
